A study of Mus musculus with 9 samples.

Results

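Runx1, Gadd45a, Ncam1, Scn4a, Etv5 and Hdac4 are 6 genes known for changes in expression when skeletal muscle loses its nerve supply or its electrical activity. They were chosen by name from that knowledge, with earlier results of these data known, and the acetylcholine receptor subunits were left out. They are 6 of the 15593 gene symbols in the deposited table. All 6 were above 0 in all 9 libraries and were tested. Their RNA was measured in gastrocnemius, the large calf muscle, of 3 groups of mice: mdx mice that received GTx-026 (10 mg/kg, subcutaneous), mdx mice that received vehicle, and wildtype mice that received vehicle, with 3 libraries in each group. The mdx mouse carries a mutation of Dmd, the gene of dystrophin, in all its cells and serves as a mouse model of Duchenne muscular dystrophy. GTx-026 is a drug known here by its code name, and the series' title concerns agonists of the androgen receptor. The strain label is C57BL/6 for every mouse, mdx ones as well, and the sources used here give no age, sex or length of treatment. No wildtype group given GTx-026 was analysed here, so the drug's values are for mdx muscle only. The labels give 3 mice a group but tie no library to a mouse, so a p-value speaks only of the spread among libraries, which may be technical.

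Innervated muscle fibres keep many genes of the neuromuscular junction active only in the few nuclei beneath the nerve ending. When the nerve is cut or blocked, the class II histone deacetylase Hdac4 accumulates in mouse muscle and represses Dach2 and Hdac9, which relieves the repression of the myogenic factor Myog and of its targets. Runx1 is induced by denervation and limits the wasting of denervated mouse fibres, Gadd45a is a stress gene that takes part in denervation atrophy, and the adhesion molecule Ncam1 spreads over the fibre surface. Etv5 is an ETS-family transcription factor enriched in the nuclei beneath the junction. Scn4a is the adult sodium channel pore subunit of skeletal muscle, which carries the action potential along the fibre.

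The 6 genes lie on the minus strand of 5 chromosomes in the GENCODE annotation of GRCm38.p6, and the submitters' processing notes name the earlier patch GRCm38.p3. Runx1 spans chr16:92601466-92826149, Etv5 chr16:22381309-22439719, Hdac4 chr1:91928779-92195699, Gadd45a chr6:67035096-67037457, Ncam1 chr9:49502136-49798925 and Scn4a chr11:106318592-106353288. The RefSeq promoter sequences (GRCm38.p6; 300 bases, read 5′ to 3′ on the minus strand, with the last 50 bases inside the transcript) are shown for Runx1, which was the member that passed the test, and for Scn4a, the channel whose mdx levels all lay below its wildtype levels. Capitals mark the E-box CANNTG, the motif of myogenic factors such as Myog, and the N-box CCGGAA, the core of the ETS motif of junction genes. Both strands were searched, and no marked match overlaps another.

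Runx1 distal start (chr16:92826025-92826324): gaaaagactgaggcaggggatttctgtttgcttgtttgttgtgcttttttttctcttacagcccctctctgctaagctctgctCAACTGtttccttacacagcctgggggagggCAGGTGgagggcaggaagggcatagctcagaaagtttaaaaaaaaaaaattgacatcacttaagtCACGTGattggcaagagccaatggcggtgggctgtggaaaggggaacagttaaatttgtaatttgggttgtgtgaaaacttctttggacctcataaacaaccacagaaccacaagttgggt

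Runx1 proximal start (chr16:92697280-92697579): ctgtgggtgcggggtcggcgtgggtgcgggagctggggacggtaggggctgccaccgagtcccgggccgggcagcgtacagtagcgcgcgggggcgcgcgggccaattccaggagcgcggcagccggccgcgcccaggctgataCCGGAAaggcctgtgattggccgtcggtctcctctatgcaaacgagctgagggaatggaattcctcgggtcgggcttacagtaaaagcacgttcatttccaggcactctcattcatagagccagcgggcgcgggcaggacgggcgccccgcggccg

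Scn4a (chr11:106349341-106349640): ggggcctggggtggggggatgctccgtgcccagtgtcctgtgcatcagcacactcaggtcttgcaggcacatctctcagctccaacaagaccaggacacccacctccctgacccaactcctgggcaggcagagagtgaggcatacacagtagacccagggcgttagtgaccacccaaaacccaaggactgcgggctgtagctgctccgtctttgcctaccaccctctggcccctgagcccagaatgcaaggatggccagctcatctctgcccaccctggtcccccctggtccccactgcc

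The distal Runx1 promoter holds 3 E-boxes, no N-box and 2 matches to the Runx core TGTGGT, which are not in capitals. The proximal Runx1 promoter holds 1 N-box and no E-box, and the printed Scn4a window holds neither motif. That Scn4a window lies inside the annotated gene. The 5′ end of Scn4a is at 106353288 in GENCODE and at 106365559 in RefSeq, and the sequence at those ends was not searched. Of the promoters not printed, that of Gadd45a (chr6:67037358-67037657) holds 1 E-box and 1 N-box, and 1 of the 2 Etv5 promoters holds 2 E-boxes. The Hdac4 window (chr1:92180292-92180591) holds neither motif and also lies inside its gene, away from the annotated 5′ end. Among all 32851 promoters of this length 72.3% hold an E-box, 14.9% an N-box and 16.8% the Runx core, so each motif is described here as letters in a window and not as a bound site.

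Levels are given as CPM, a gene's share of the rescaled signal of its library, scaled to a total of 1 M (mega). The table held an estimated 25.1 to 38.0 M (mega) listed reads per library, and 1 CPM stood for 27.5 to 36.4 reads. Dmd, which marks the genotype, averaged 16.6 ± 2.07 CPM in mdx GTx-026, 18.3 ± 5.97 CPM in mdx vehicle and 50.8 ± 9.30 CPM in wildtype vehicle libraries (SD, n = 3 each), and no mdx library reached the wildtype range. Muscle fibre genes marked the tissue as skeletal muscle in all 9 libraries. The 14 muscle fibre markers summed to 170700 to 288296 CPM in mdx GTx-026 and 167847 to 225332 CPM in mdx vehicle libraries. In wildtype vehicle libraries they summed to 229863 to 288228 CPM. Library 1 of mdx vehicle stood apart from its group. Against the other 2 libraries of mdx vehicle its median correlation was 0.945, and it held the lowest fibre marker sum and the highest sum of 10 blood-derived cell markers, 905 CPM. Members' fold changes, genes called and list medians are therefore in many cases also given without it. For the lists that setting was chosen after seeing the data. Neither the labels nor the headers name a batch.

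Runx1 was the member set furthest apart between mdx and wildtype muscle. It had 6.09, 6.74 and 5.96 CPM in mdx GTx-026 libraries, 4.96, 5.93 and 4.87 CPM in mdx vehicle libraries, and 2.67, 1.84 and 1.75 CPM in wildtype vehicle libraries. The 3 groups did not overlap, and every mdx library lay above every wildtype one. Every GTx-026 library also lay above every mdx vehicle library, but by a narrow margin. The nearest were GTx-026 library 3 at 5.96 CPM and mdx vehicle library 2 at 5.93 CPM. Runx1 rose to 2.52 times the wildtype mean in mdx vehicle muscle, with a log2 fold change of 1.03 (SE 0.16, 95% interval 0.66 to 1.39, adjusted p = 0.0369, limma). In mdx GTx-026 muscle it rose to 3.00 times the wildtype mean, with a log2 fold change of 1.25 (SE 0.16, 95% interval 0.88 to 1.61, adjusted p = 0.0082, limma). These log2 fold changes are on the log2(CPM + 1) scale, which understates the change of a gene at this level. A smaller pseudocount, 1 on the scale of the deposited signal, gave 1.34 for mdx vehicle over wildtype and 1.59 for mdx GTx-026 over wildtype, and this setting was chosen after seeing the data.

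The mdx vehicle call of Runx1 lay close to the threshold. It was kept without wildtype library 1 (adjusted p = 0.0462) and lost when any of the other 8 libraries was left out, the log2 fold change staying between 0.95 and 1.16. The adjusted p was 0.181 without wildtype library 2, 0.236 without wildtype library 3, 0.0588, 0.0682 and 0.112 without mdx vehicle library 1, 2 and 3, and 0.0712, 0.0769 and 0.0674 without mdx GTx-026 library 1, 2 and 3. The call for mdx GTx-026 over wildtype was lost without wildtype library 3 (adjusted p = 0.0540) and kept without each of the others. Between the mdx groups, GTx-026 libraries averaged 6.26 ± 0.423 CPM and vehicle libraries 5.25 ± 0.587 CPM (SD, n = 3 each). That log2 fold change of 0.22 (SE 0.16, 95% interval -0.14 to 0.58, adjusted p = 0.9996, limma) did not pass the test, and without mdx vehicle library 1 it was 0.19. Over all tested genes 3.67% had every GTx-026 library above every mdx vehicle library.

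**Figure D1:**
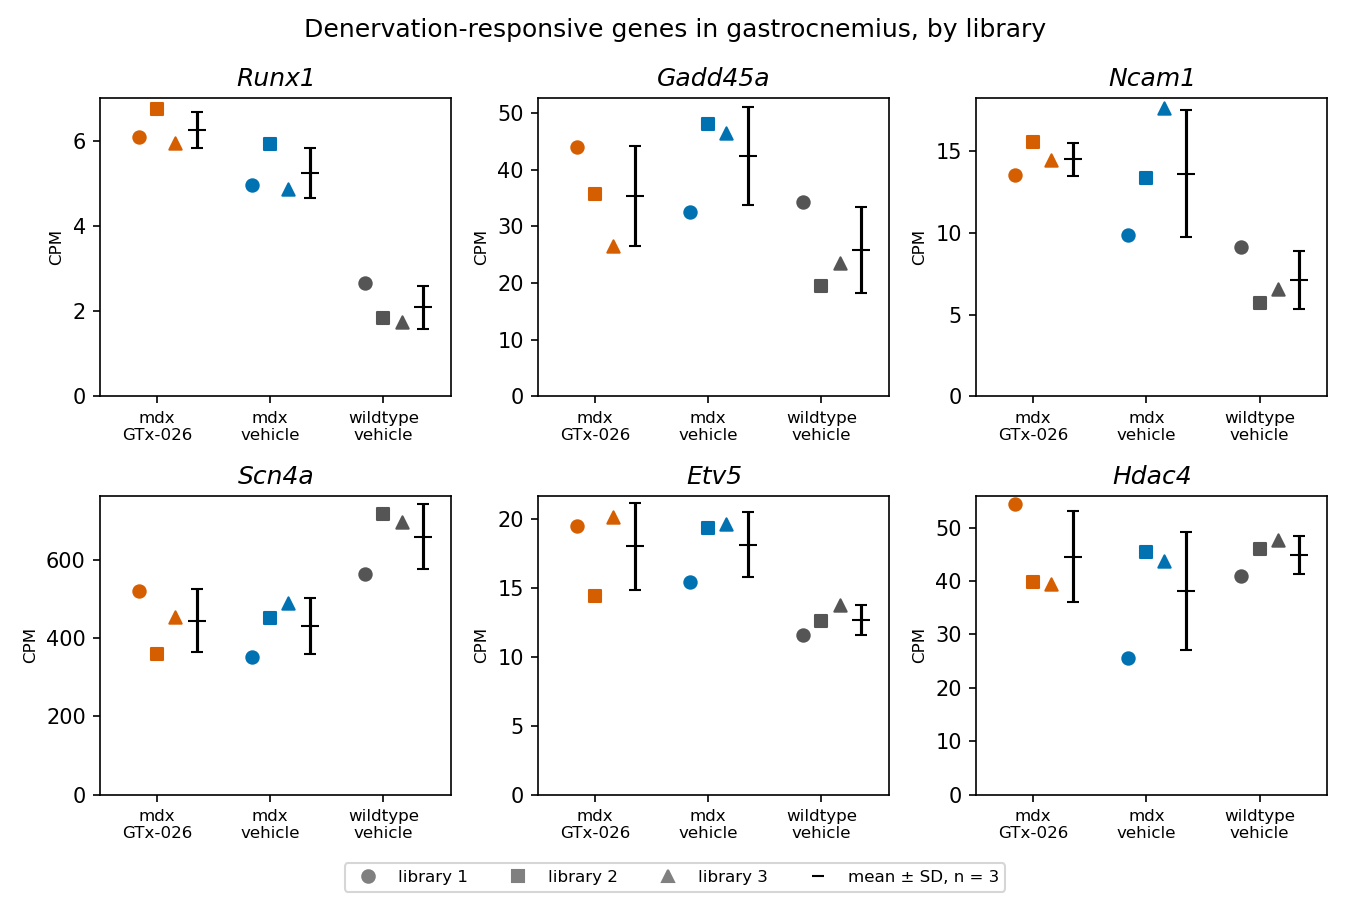
Level in CPM of each of the 6 genes in each library, on linear axes that start at 0; points are libraries, and bars show the mean ± SD of 3 libraries. The 3 groups of Runx1 do not overlap, the mdx groups by a narrow margin (5.96 against 5.93 CPM). The wildtype libraries of Scn4a, at 565 to 719 CPM, lie above all mdx libraries.

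Etv5 had 19.5, 14.4 and 20.1 CPM in mdx GTx-026 libraries, 15.4, 19.3 and 19.6 CPM in mdx vehicle libraries, and 11.6, 12.6 and 13.7 CPM in wildtype vehicle libraries. Both mdx groups lay above all wildtype libraries and overlapped each other, GTx-026 library 2 being the lowest mdx library. The mdx vehicle mean was 1.43 times the wildtype mean, a log2 fold change of 0.48 (SE 0.17, 95% interval 0.10 to 0.86, adjusted p = 0.301, limma), which did not pass the test. The log2 fold change of mdx GTx-026 over wildtype was 0.47 (SE 0.17, adjusted p = 0.275, limma). The mdx GTx-026 group averaged 18.0 ± 3.16 CPM and the mdx vehicle group 18.1 ± 2.36 CPM (SD, n = 3 each). The 95% interval of their log2 fold change ran from -0.40 to 0.36 and included 0, and the difference did not pass the test. The interval is not a limit of detection. Without mdx vehicle library 1 the log2 fold change was 0.59 for mdx vehicle over wildtype and -0.12 for mdx GTx-026 over mdx vehicle. Of its ETS relatives, Etv1 averaged 1.57 ± 0.453 CPM in mdx GTx-026, 0.934 ± 0.175 CPM in mdx vehicle and 0.953 ± 0.245 CPM in wildtype vehicle libraries (SD, n = 3 each), with no call. Etv4 was listed at 0 in all 3 wildtype libraries. Its 3 records summed to a deposited signal of 49.7, 47.7 and 38.9 in mdx GTx-026 and of 51, 44.0 and 67.2 in mdx vehicle libraries. The smallest signal above 0 in the table is 10 and a record is at 0 in all or none of a group's libraries, so an entry of 0 is read as listed at 0 and gives no fold.

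Hdac4 did not separate the groups. It had 54.4, 39.8 and 39.5 CPM in mdx GTx-026 libraries, 25.5, 45.4 and 43.7 CPM in mdx vehicle libraries, and 41.0, 46.1 and 47.7 CPM in wildtype vehicle libraries. All 3 groups overlapped, the highest library being GTx-026 library 1 and the lowest mdx vehicle library 1. The log2 fold change was -0.27 in mdx vehicle over wildtype (SE 0.22, adjusted p = 0.631, limma), and without mdx vehicle library 1 it was -0.01. For mdx GTx-026 over mdx vehicle it was 0.25 (SE 0.22, 95% interval -0.26 to 0.75), and without that library -0.02. Mean levels in mdx GTx-026 and wildtype vehicle libraries were 44.6 ± 8.55 and 44.9 ± 3.50 CPM (SD, n = 3 each). The class II relatives of Hdac4 did not pass the test either. Hdac5 averaged 67.8 ± 12.6 CPM in mdx GTx-026, 70.3 ± 16.5 CPM in mdx vehicle and 76.2 ± 9.25 CPM in wildtype vehicle libraries (SD, n = 3 each). Hdac9, a target that Hdac4 represses, averaged 2.11 ± 0.652 CPM in mdx GTx-026, 3.18 ± 0.312 CPM in mdx vehicle and 3.57 ± 0.664 CPM in wildtype vehicle libraries (SD, n = 3 each). Every GTx-026 library of Hdac9 lay below every library of both other groups, without a call. Dach2, the other target named above, was not analysed here.

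Gadd45a had 44.0, 35.7 and 26.5 CPM in mdx GTx-026 libraries, 32.4, 48.1 and 46.5 CPM in mdx vehicle libraries, and 34.2, 19.5 and 23.5 CPM in wildtype vehicle libraries. Wildtype library 1 lay above mdx vehicle library 1 and GTx-026 library 3, so each mdx group overlapped the wildtype group. The mdx vehicle mean was 1.65 times the wildtype mean, with a log2 fold change of 0.71 (SE 0.25, 95% interval 0.15 to 1.28, adjusted p = 0.302, limma) that did not pass the test. For mdx GTx-026 over wildtype it was 0.45 (SE 0.25, adjusted p = 0.534, limma), and for mdx GTx-026 over mdx vehicle -0.26 (SE 0.25, 95% interval -0.83 to 0.30). Without mdx vehicle library 1 it was 0.89 for mdx vehicle over wildtype and -0.44 for mdx GTx-026 over mdx vehicle. Its stress-gene relatives spread widely. Gadd45b averaged 12.3 ± 3.68 CPM in mdx GTx-026, 27.0 ± 10.8 CPM in mdx vehicle and 13.7 ± 7.71 CPM in wildtype vehicle libraries (SD, n = 3 each). Gadd45g averaged 66.5 ± 31.5 CPM in mdx GTx-026, 51.6 ± 28.8 CPM in mdx vehicle and 23.3 ± 5.88 CPM in wildtype vehicle libraries (SD, n = 3 each), and neither gene was called in any comparison. On the other strand, E230016M11Rik shares 337 exonic bases with Gadd45a, 19.1% of the exonic bases of Gadd45a, and no source used here says whether strand was used in counting, so their reads could not be told apart. E230016M11Rik, named after its values were seen, averaged 3.50 ± 1.10 CPM in mdx GTx-026, 4.88 ± 1.54 CPM in mdx vehicle and 2.36 ± 1.29 CPM in wildtype vehicle libraries (SD, n = 3 each).

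Ncam1 had 13.5, 15.5 and 14.4 CPM in mdx GTx-026 libraries, 9.90, 13.4 and 17.6 CPM in mdx vehicle libraries, and 9.11, 5.74 and 6.55 CPM in wildtype vehicle libraries. Both mdx groups lay above all wildtype libraries, and the mdx vehicle libraries spread to both sides of the GTx-026 ones. The coefficient of variation was 6.96% in mdx GTx-026, 28.5% in mdx vehicle and 24.7% in wildtype vehicle libraries. Ncam1 averaged 1.91 times the wildtype mean in mdx vehicle muscle, a log2 fold change of 0.83 (SE 0.22, 95% interval 0.34 to 1.33, adjusted p = 0.197, limma). That log2 fold change was 1.03 without mdx vehicle library 1 (adjusted p = 0.108, limma). In mdx GTx-026 muscle it averaged 2.03 times the wildtype mean, a log2 fold change of 0.95 (SE 0.22, 95% interval 0.45 to 1.45, adjusted p = 0.0804, limma). Neither passed the test, and without mdx vehicle library 1, which sets part of the pooled spread, the adjusted p for mdx GTx-026 over wildtype was 0.0358. For mdx GTx-026 over mdx vehicle the log2 fold change was 0.12 (SE 0.22, 95% interval -0.38 to 0.62), and without that library it was -0.08. Ncam1 is also made by satellite cells and by Schwann cells that have lost their axon. The 9 satellite cell markers tested summed to 5044 to 5331 CPM in mdx GTx-026, 2973 to 4271 CPM in mdx vehicle and 3520 to 4378 CPM in wildtype vehicle libraries, but the fibre protein Des made up 97.6% to 98.5% of each sum. The other 8 markers summed to 76.4 to 80.6 CPM in mdx GTx-026, 72.3 to 88.9 CPM in mdx vehicle and 73.7 to 78.1 CPM in wildtype vehicle libraries, so the groups overlapped. The 8 Schwann cell markers tested summed to 76.7 to 113 CPM in mdx GTx-026, 52.2 to 108 CPM in mdx vehicle and 85.6 to 125 CPM in wildtype vehicle libraries. Their part in the Ncam1 values was not tested. In bulk muscle, more cells of a type and more RNA per cell cannot be told apart.

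Scn4a was the member whose libraries all lay lower in mdx than in wildtype muscle. It had 522, 361 and 454 CPM in mdx GTx-026 libraries, 352, 452 and 492 CPM in mdx vehicle libraries, and 565, 719 and 699 CPM in wildtype vehicle libraries. All mdx libraries lay below all wildtype libraries, and the mdx groups overlapped over most of their range. The mdx vehicle mean was 0.653 times the wildtype mean, with a log2 fold change of -0.62 (SE 0.20, 95% interval -1.08 to -0.16, adjusted p = 0.282, limma). Without mdx vehicle library 1 it was -0.48. The mdx GTx-026 mean was 0.675 times the wildtype mean, with a log2 fold change of -0.57 (SE 0.20, adjusted p = 0.261, limma), and neither comparison passed the test. Its log2 fold change for mdx GTx-026 over mdx vehicle was 0.04 (SE 0.20, 95% interval -0.41 to 0.50), and without that library -0.10. Of the 14 muscle fibre markers, 13 had lower fitted levels in mdx vehicle than in wildtype muscle, with a median log2 fold change of -0.40 (-0.24 without mdx vehicle library 1) and no call. Against wildtype, mdx GTx-026 muscle had 11 of the 14 lower, with a median of -0.22. The part of fibre RNA in the Scn4a values was not tested.

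Scn4a was 1 of 6 sodium channel subunits tested, and the subunits did not share a direction. Scn4b, an auxiliary subunit, had 417, 334 and 409 CPM in mdx GTx-026 libraries, 267, 467 and 383 CPM in mdx vehicle libraries, and 507, 652 and 626 CPM in wildtype vehicle libraries. Like those of Scn4a, its mdx libraries all lay below its wildtype libraries. Its log2 fold change was -0.70 for mdx vehicle over wildtype (SE 0.22, adjusted p = 0.268, limma) and -0.62 for mdx GTx-026 over wildtype (SE 0.22, adjusted p = 0.269, limma). The first of these was -0.48 without mdx vehicle library 1 (adjusted p = 0.397, limma). Scn7a, a sodium channel relative known from Schwann cells, had 13.2, 11.4 and 12.1 CPM in mdx GTx-026 libraries. It averaged 6.54 ± 2.06 CPM in mdx vehicle and 4.42 ± 1.44 CPM in wildtype vehicle libraries (SD, n = 3 each). It rose in mdx GTx-026 over wildtype muscle by a log2 fold change of 1.32 (SE 0.24, adjusted p = 0.0346, limma), and its 0.84 in mdx GTx-026 over mdx vehicle (SE 0.24, adjusted p = 0.9996, limma) did not pass. Over the list, 4 of 6 subunits were higher in mdx vehicle than in wildtype muscle with no call, and 2 of 6 were higher in mdx GTx-026 than in wildtype muscle with 1 rise. Without mdx vehicle library 1 the first count was 3 of 6, again with no call.

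**Figure D2:**
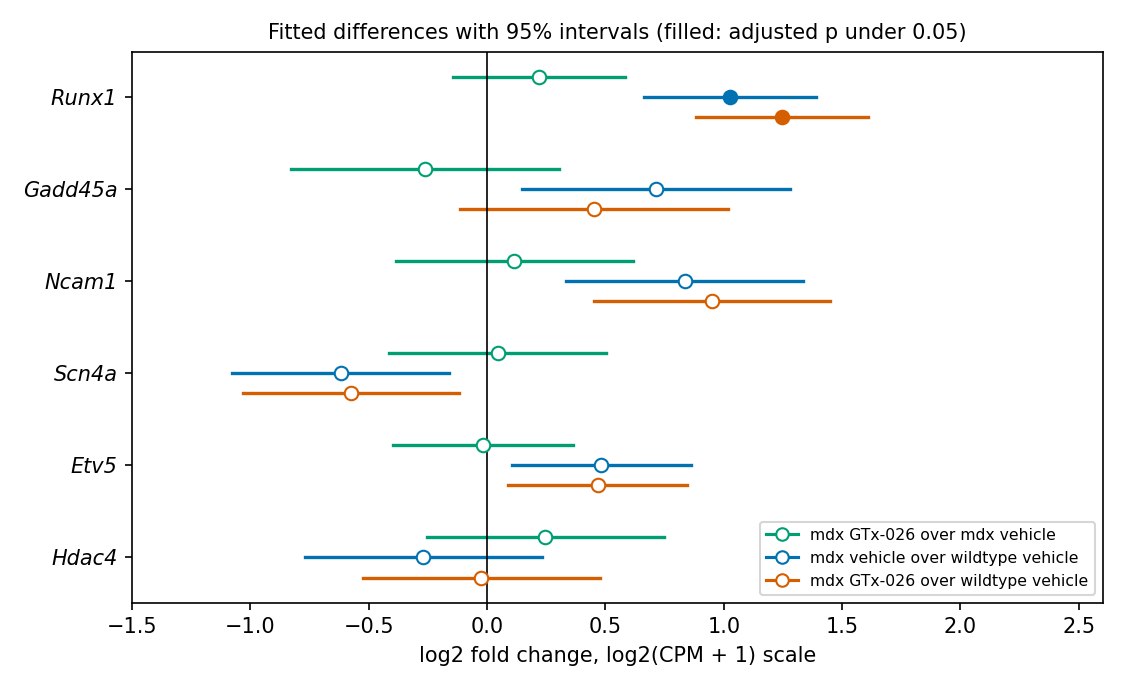
Fitted log2 fold change (points) and 95% interval (lines) of the 6 genes on the log2(CPM + 1) scale for the 3 comparisons; filled points have an adjusted p under 0.05. Runx1 is filled in both comparisons with wildtype, at 1.03 and 1.25, and all 6 intervals of mdx GTx-026 over mdx vehicle cross 0.

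Set against the other genes, in mdx vehicle over wildtype 1 of the 6 members was called higher (Runx1), where 0.189% of the 15372 tested genes were called higher and 0.338% in either direction. At an unadjusted p under 0.05, 4 members lay higher and 1 lower, where 6.34% of all tested genes lay higher, 6.36% lower and 12.7% in either direction. The libraries did not overlap for 3 members that lay higher and 1 that lay lower, where this held for 7.97% of all tested genes higher, 8.49% lower and 16.5% in either direction. The median log2 fold change of the 6 was 0.60, against 0.0088 over all tested genes. The comparison of mdx GTx-026 with wildtype shares its wildtype libraries with that one. In it 1 of the 6 was called higher (Runx1), against 1.05% of all tested genes called higher and 1.48% in either direction. At an unadjusted p under 0.05, 3 members lay higher and 1 lower, against 7.44% higher, 5.11% lower and 12.5% in either direction over all tested genes. Without overlap there were 3 members higher and 1 lower, against 11.5% higher, 9.23% lower and 20.8% in either direction. Between the mdx groups limma called 0 of the 6, against 0.013% of all tested genes. At an unadjusted p under 0.05 there were 0 members, against 1.97% higher, 1.2% lower and 3.17% in either direction over all tested genes. Without overlap there was 1 member, Runx1, higher, against 3.67% higher, 3.13% lower and 6.8% in either direction. With mdx vehicle library 1 left out, 0 of the 6 were called in mdx vehicle over wildtype, 2 in mdx GTx-026 over wildtype (Runx1 and Ncam1) and 0 between the mdx groups. In that setting 0.364%, 2.39% and 0.00651% of all tested genes were called in these 3 comparisons. The members were chosen with earlier results of these data known, so their counts beside the shares of all genes are a description.

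The order of the group means differed between members. Runx1 and Ncam1 were highest in mdx GTx-026 and lowest in wildtype vehicle muscle, with mdx vehicle between them. Gadd45a and Etv5 were highest in mdx vehicle and lowest in wildtype muscle, with mdx GTx-026 between them. Scn4a and Hdac4 were highest in wildtype and lowest in mdx vehicle muscle. Neighbouring groups in these orders overlapped between the mdx groups for all members but Runx1, and between wildtype and the nearest mdx group for Gadd45a and Hdac4. In mdx vehicle, library 1 was the lowest of its group for 5 of the 6 members, Runx1 being the exception.

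The table lists a gene once per sequence record, and the records of a gene may share reads, so they are no replicates. The 2 Runx1 records stood at 2.46 and 2.58 times wildtype in mdx vehicle and at 2.75 and 3.25 times in mdx GTx-026. Only 1 of the 2 had every GTx-026 library above every mdx vehicle library. In the other the mdx groups overlapped, with 2.50 to 3.32 CPM in GTx-026 and 2.27 to 2.73 CPM in vehicle libraries. Ncam1 had 10 records, of which 9 were above 0 in all libraries and entered its sum. All 9 had higher means in mdx than in wildtype muscle, from 1.54 to 2.45 times in mdx vehicle and from 1.54 to 2.56 times in mdx GTx-026. The libraries of 7 of the 9 did not overlap for mdx vehicle against wildtype, and none of the 9 overlapped for mdx GTx-026 against wildtype. For summed genes, 7.97% and 11.5% of all tested genes lay higher without overlap in these 2 comparisons. The share over all records was not computed. The remaining Ncam1 record was listed at 0 in all wildtype libraries and had a deposited signal of 16.1, 28.6 and 25.4 in mdx GTx-026 and of 14, 20.6 and 36.0 in mdx vehicle libraries. The 3 Scn4a records stood at 0.627 to 0.667 times wildtype in mdx vehicle and at 0.649 to 0.685 times in mdx GTx-026. The 2 Etv5 records stood at 1.41 and 1.46 times wildtype in mdx vehicle and at 1.39 and 1.46 times in mdx GTx-026. Hdac4 had 12 records, which ran from 0.650 to 0.973 times wildtype in mdx vehicle and from 0.847 to 1.12 times in mdx GTx-026, with 4 of the 12 above 1. All 12 had a higher mean in mdx GTx-026 than in mdx vehicle libraries, by 1.03 to 1.30 times. For all 12, mdx vehicle library 1 was the lowest mdx vehicle library. Without it the log2 fold change of summed Hdac4 was -0.02 for mdx GTx-026 over mdx vehicle. For mdx vehicle over wildtype it was -0.01.

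The authors' deposited table holds an unadjusted p-value for each record. In mdx vehicle over wildtype the authors' deposited table had a p under 0.05 for 2 of 2 Runx1 records, 2 of 2 Etv5 records, 3 of 3 Scn4a records, 6 of 10 Ncam1 records, 0 of 12 Hdac4 records and 0 of 1 Gadd45a record, against 6.01% of all records with a p. In mdx GTx-026 over wildtype the authors' deposited table had such a p for 2 of 2 Runx1, 1 of 2 Etv5, 3 of 3 Scn4a, 6 of 10 Ncam1, 0 of 12 Hdac4 and 0 of 1 Gadd45a records, against 9.32% of all. For mdx GTx-026 over mdx vehicle the authors' deposited table had it for 1 of the 12 Hdac4 records and for none of the other members' records, against 1.94% of all.

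Reads could also be shared with neighbours. Gm26720, a long noncoding gene on the other strand, covers 22.4% of the exonic bases of Hdac4, and another annotated gene, Gm4798, shares 24.5% of the 50-base words of Etv5. Neither was analysed here, so the levels of Hdac4 and Etv5 may hold some of their reads. For Runx1 and Ncam1 the largest share of 50-base words held by another gene was 0.47% and 2.82%.

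**Figure D3:**
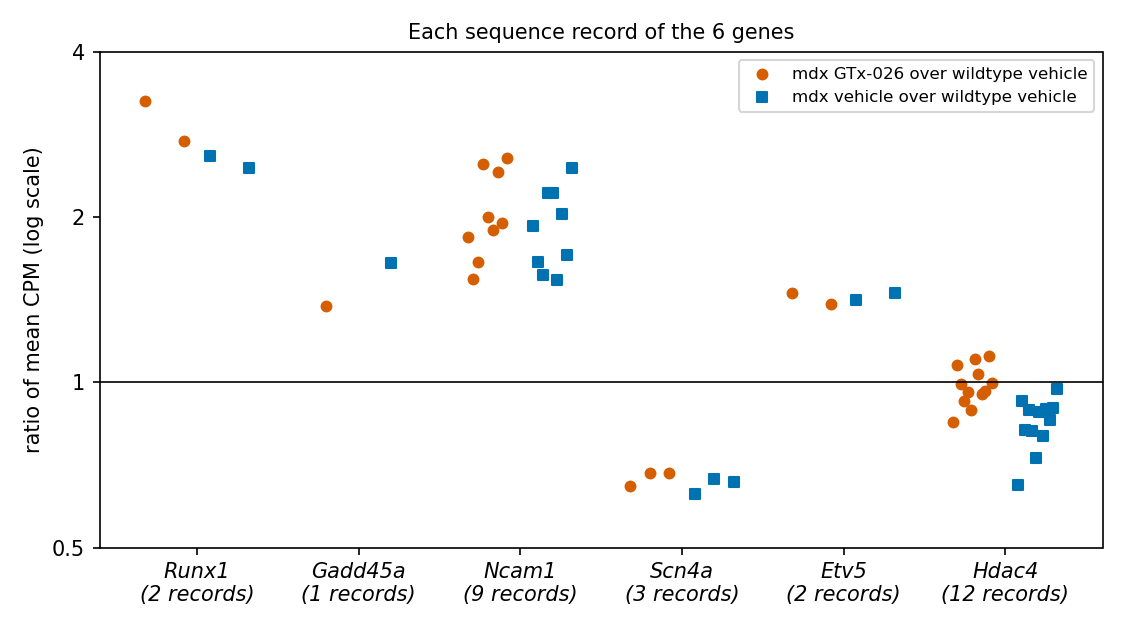
Ratio of mean CPM of each sequence record to wildtype vehicle, on a log axis, for mdx GTx-026 (circles) and mdx vehicle (squares); records of a gene may share reads. All Runx1 and Ncam1 records lie above 1, from 1.54 to 3.25, and all Scn4a records lie below 1, from 0.627 to 0.685.

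Other genes of the denervation response moved in part. Of 28 genes on that list, 24 were tested. In mdx vehicle over wildtype 10 of the 24 were higher (median log2 fold change -0.07), and the 2 that rose were the metallothioneins Mt1 (3.00, SE 0.43, adjusted p = 0.0270, limma) and Mt2 (4.06, SE 0.41, adjusted p = 0.0069, limma), which bind zinc. Mt1 (3.61) and Mt2 (4.62) stayed called without mdx vehicle library 1, Chrna1 (1.44, adjusted p = 0.0131, limma) was called as well, and 14 of the 24 were higher, with a median of 0.08. Of the 24, 12 were higher in mdx GTx-026 over wildtype, with a median of 0.03, and 6 rose. Besides Mt1 (3.98, adjusted p = 0.00454) and Mt2 (5.11, adjusted p = 0.00102) these were Ankrd1, a stretch-responsive sarcomere protein (2.34, adjusted p = 0.0165), Sln, an inhibitor of the calcium pump (3.60, adjusted p = 0.0475), Musk, the receptor kinase that organises the junction (1.68, adjusted p = 0.0294), and Chrna1, the alpha subunit of the muscle acetylcholine receptor (1.31, adjusted p = 0.0205). None of the 24 fell in either comparison, and none was called between the mdx groups, where 19 of the 24 were higher in GTx-026 with a median of 0.17. That lean rested on mdx vehicle library 1: without it 11 of the 24 were higher, with a median of -0.0086.

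Myog, which stands between Hdac4 and the targets of Myog, was not called in any comparison, and neither was Cdkn1a. Myog averaged 21.1 ± 6.02 CPM in mdx GTx-026, 21.1 ± 15.4 CPM in mdx vehicle and 11.5 ± 5.82 CPM in wildtype vehicle libraries (SD, n = 3 each). Its log2 fold change was 0.68 in mdx vehicle over wildtype (SE 0.48, adjusted p = 0.574, limma), and mdx vehicle library 3 held its highest value, 38.4 CPM. Cdkn1a, the cell-cycle inhibitor p21, averaged 37.4 ± 2.09 CPM in mdx GTx-026, 50.1 ± 23.7 CPM in mdx vehicle and 17.9 ± 5.08 CPM in wildtype vehicle libraries (SD, n = 3 each). Its mdx libraries all lay above its wildtype ones, with a log2 fold change of 1.38 in mdx vehicle over wildtype (SE 0.30, adjusted p = 0.119, limma). The ubiquitin ligases of muscle wasting had lower means in mdx muscle without a call. Fbxo32 averaged 162 ± 40.7 CPM in mdx GTx-026, 135 ± 32.6 CPM in mdx vehicle and 226 ± 78.1 CPM in wildtype vehicle libraries (SD, n = 3 each). Trim63 averaged 170.0 ± 45.0 CPM in mdx GTx-026, 154 ± 51.1 CPM in mdx vehicle and 233 ± 48.0 CPM in wildtype vehicle libraries (SD, n = 3 each). Chrng, the embryonic receptor subunit that returns on denervation, was listed at 0 in all wildtype libraries. Its deposited signal was 49.7, 116 and 45.6 in mdx GTx-026 and 18, 34.1 and 147 in mdx vehicle libraries.

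Among the partners and relatives of the members, 1 gene passed the test. Cbfb, the subunit that Runx1 binds DNA with, averaged 49.5 ± 9.87 CPM in mdx GTx-026, 65.5 ± 4.86 CPM in mdx vehicle and 89.9 ± 11.9 CPM in wildtype vehicle libraries (SD, n = 3 each). It fell in mdx GTx-026 over wildtype muscle, with a log2 fold change of -0.86 (SE 0.16, adjusted p = 0.0373, limma), and in mdx vehicle over wildtype its -0.45 (SE 0.16, adjusted p = 0.321, limma) did not pass. Runx2, a Runx1 relative, averaged 0.673 ± 0.190 CPM in mdx GTx-026, 1.25 ± 0.430 CPM in mdx vehicle and 0.744 ± 0.347 CPM in wildtype vehicle libraries (SD, n = 3 each). Over the 9 tested paralogues and partners, 4 were higher in mdx vehicle than in wildtype with a median of -0.01 and no call, and 3 were higher in mdx GTx-026 than in wildtype with a median of -0.05 and 1 fall. With mdx vehicle library 1 left out, 6 of the 9 were higher in mdx vehicle than in wildtype, with a median of 0.07 and no call. Of 9 junction genes known as targets of ETS factors such as Etv5, all 9 were higher in mdx vehicle than in wildtype muscle, with a median of 0.81 and no call. All 9 were again higher without mdx vehicle library 1, with a median of 0.83, and Chrna1 was called. Of the same 9, 7 were higher in mdx GTx-026 over wildtype, with a median of 0.72, and the 2 that rose were Musk and Chrna1, already counted above. Without mdx vehicle library 1, 4 of the 9 rose in that comparison, Chrnd and Erbb2 in addition.

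Markers of other cells were measured beside the members. The 10 blood-derived cell markers tested summed to 233 to 390 CPM in mdx GTx-026, 94.1 to 905 CPM in mdx vehicle and 37.9 to 268 CPM in wildtype vehicle libraries. All 10 had fitted log2 fold changes above 0 in each mdx group over wildtype, with a median of 1.402 for mdx GTx-026 and 1.32 for mdx vehicle, and none was called. By mean CPM 8 of the 10 were higher in mdx GTx-026 than in wildtype, and Cd52 (11.5 against 14.6 CPM) and Coro1a (33.1 against 35.9 CPM) were lower. Without mdx vehicle library 1 the median for mdx vehicle over wildtype was 0.79, with 8 of the 10 above 0, and Csf1r was called higher in mdx GTx-026 over wildtype. The 10 fibro-adipogenic cell markers summed to 2100 to 3137 CPM in mdx GTx-026, 1103 to 2611 CPM in mdx vehicle and 1198 to 1426 CPM in wildtype vehicle libraries. All 10 were higher in mdx GTx-026 than in wildtype, with a median of 0.86, and Pdgfra, a receptor that marks these cells, rose (1.11, SE 0.20, adjusted p = 0.0310, limma). In mdx vehicle over wildtype 8 of the 10 were higher, with a median of 0.45 and no call, and without mdx vehicle library 1 the median was 0.61. With that library left out, Col3a1 was called higher as well in mdx GTx-026 over wildtype. Runx1, Gadd45a and Ncam1 are also made outside muscle fibres, Runx1 in blood cells, and the part of these cells in their values was not tested. The 10 slow fibre markers varied widely within each group, summing to 1101 to 15385 CPM in mdx GTx-026, 428 to 9679 CPM in mdx vehicle and 1301 to 11635 CPM in wildtype vehicle libraries. Their direction depended on the scale and on 1 library. By fitted log2 fold change 2 of 10 were higher in mdx vehicle over wildtype and 3 of 10 in mdx GTx-026 over wildtype, and by mean CPM 6 and 8 of 10. All 10 were higher by fit in mdx vehicle over wildtype without mdx vehicle library 1. By fit, satellite cell markers were higher in 5 of 9 and in 7 of 9, and Schwann cell markers in 2 of 8 and in 4 of 8, in these comparisons, with no call in any of the 3 lists. With mdx vehicle library 1 left out, 6 of 9 satellite and 1 of 8 Schwann cell markers were higher in mdx vehicle over wildtype.

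**Figure D4:**
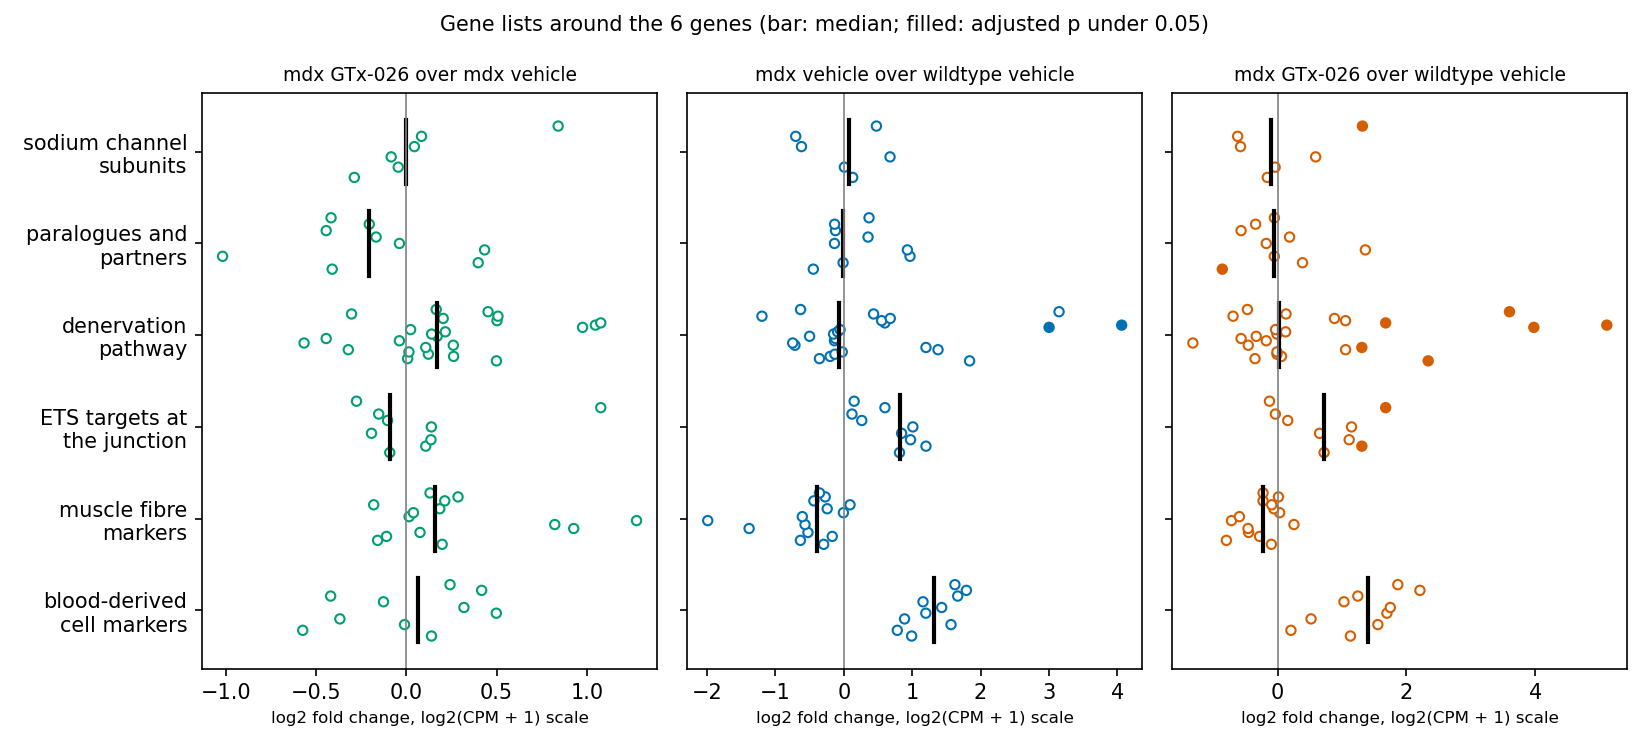
Fitted log2 fold change of each tested gene (points) of 6 gene lists in the 3 comparisons on the log2(CPM + 1) scale, with a different horizontal scale in each panel; bars are list medians and filled points have an adjusted p under 0.05. All 9 ETS targets and all 10 blood-derived cell markers lie above 0 in mdx vehicle over wildtype, and no point is filled in mdx GTx-026 over mdx vehicle.

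The genes whose pattern over the 9 libraries was most like that of a member were found by Pearson's correlation of log2(CPM + 1) among 10342 genes at 5 CPM or more on average, 10343 for Runx1. The libraries share their groups and their scaling, so the coefficients are a description. For Runx1 they were LOC102641654 (0.97), Tead3 (0.96) and Mt2 (0.96), and within groups these coefficients were 0.22, 0.77 and 0.30. For Etv5 they were Sgcb (0.96), Rere (0.95) and Rbbp4 (0.94), and for Hdac4 they included Klc2 (0.99) and Rabl6 (0.99). For Gadd45a they were Tmem9 (0.96), Asl (0.95) and Haghl (0.93), and for Ncam1 they were Gja1 (0.97), Tcaf1 (0.97) and Tspan17 (0.96). For Scn4a they were D230025D16Rik (0.99), Nomo1 (0.99) and Zfp521 (0.98), each with 0.97 or more within groups. The likeness to Runx1 thus lay mostly between the groups for LOC102641654 and Mt2. For every other member the within-group coefficients were 0.83 or more. The genes were picked by their correlation over these same libraries, so high within-group coefficients follow in part from the choice.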

How the data were processed

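Per the labels' protocols, polyadenylated RNA was enriched from total RNA of gastrocnemius, and the barcoded libraries were read on an Ion Torrent Proton. The submitters' processing notes name the build GRCm38.p3 and, with no role or order, DESeq2 1.6.3, HTSeq 0.6.1p1, SAMtools 0.1.19, Bowtie2 2.2.4 and TopHat2 2.0.13; no source used here gives the annotation or strand use. The table deposited by the authors holds a scaled signal per sequence record and library. Per the file headers it also holds the authors' ratio of group means and the authors' unadjusted p-value for each pair of groups. A column name gives its group and a number, which pairs nothing.

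Scaled signal is not a count, so no count test was run. Records above 0 in all 9 libraries were summed by symbol, which left 15372 of 15593 symbols; 4 records without a symbol, 0.000646% of the signal, were left out. Libraries were rescaled by an unweighted trimmed mean of log ratios (30% trimmed on the ratio, 5% on the level; factors 0.874 to 1.30). limma 3.58.1 in R 4.3.3 was run with a trended prior variance on log2(CPM + 1), all 9 libraries in 1 model, with 6 residual and 3.54 prior degrees of freedom, so each comparison also rests on the spread of the group outside it. Two-sided p-values were adjusted after Benjamini and Hochberg over all tested genes of a comparison, with a threshold of 0.05.

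The members and gene lists were chosen with earlier results of these data known. Named genes were the 6 members, list genes called in any comparison, a fixed set of relatives, partners and denervation genes where listed, the 3 genes most like each member, and Dmd. Some of these are not reported here. Depth was estimated from the step between low values, all within 0.1 read of a whole multiple of 1 step per library; a read counted for several records enters it more than once. Alternatives covered the pseudocount, the scaling, the filter, the choice of record, the groups in the model, library weights and leaving out each library.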

Additional observations from a re-analysis of the deposited data

How the results depend on the processing

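Over 19 alternative settings no member was called in mdx GTx-026 over mdx vehicle. Runx1 was called in 18 of 19 for mdx GTx-026 over wildtype (adjusted p 0.00102 to 0.0540) and in 9 of 19 for mdx vehicle over wildtype (adjusted p 0.0081 to 0.236). The mdx vehicle call was lost with the deposited scaling only (log2 fold change 1.16, adjusted p = 0.0802, limma). It was also lost with the compared groups only in the model (1.03, adjusted p = 0.138, limma). The cause of these losses was not tested. The deposited scaling moved the median of all genes to 0.16 for mdx vehicle over wildtype, so the 1.16 includes that shift. With each library left out in turn, 0 to 1 members were called in mdx vehicle over wildtype and 0 to 2 in mdx GTx-026 over wildtype.

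Members called in mdx vehicle over wildtype numbered 0 with the deposited scaling only, 0 with the compared groups only and 2 with library weights, which added Ncam1 (1.13, adjusted p = 0.0227). In mdx GTx-026 over wildtype they numbered 2 without the filter on low values, 2 with the compared groups only and 3 with library weights. Ncam1 was called there at 1.03 without the filter, 0.95 with the compared groups only and 1.07 with weights, and Scn4a at -0.68 with weights (adjusted p = 0.0456).

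All genes called in mdx GTx-026 over mdx vehicle numbered 2, and 1 with a pseudocount of 5, 4 with the deposited scaling, 96 without the filter, 1 with the compared groups only, 4 with weights and 0 to 2 with a library left out. In mdx vehicle over wildtype 52 became 332 without the filter, 5 with the compared groups only, 295 with weights and 5 to 93 with a library left out. For mdx GTx-026 over wildtype 227 became 509, 421 and 861 in the same settings and 45 to 368 with a library left out. The cause of these moves was not tested.

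Signs turned only for differences that were not called in any setting. The largest of these was Hdac4 in mdx GTx-026 over mdx vehicle, 0.25 with the main settings. In mdx GTx-026 over mdx vehicle Scn4a was -0.0262 with the deposited scaling and -0.101 with weights, Ncam1 -0.0631 with weights, and Etv5 0.0254 with the highest record per symbol. Hdac4 in mdx GTx-026 over wildtype was 0.0874 with the deposited scaling. With a library left out the ranges in mdx GTx-026 over mdx vehicle were -0.0799 to 0.308 for Ncam1, -0.0963 to 0.188 for Scn4a, -0.0151 to 0.389 for Hdac4 and -0.123 to 0.130 for Etv5, and Hdac4 ran from -0.173 to 0.0535 in mdx GTx-026 over wildtype. No paired analysis was possible because the column numbers pair no libraries. At 27.5 to 36.4 reads per CPM, Runx1 in wildtype muscle, at 1.75 to 2.67 CPM, is the member with the fewest reads behind its values.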

Other observations

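The members deviated from their group means by up to 0.52 on the log2(CPM + 1) scale, and the libraries did not deviate alike for all members. In mdx vehicle library 1 the deviation was -0.52 for Hdac4, -0.39 for Ncam1, -0.35 for Gadd45a, -0.28 for Scn4a, -0.21 for Etv5 and -0.06 for Runx1. In mdx GTx-026 library 1 Gadd45a, Hdac4 and Scn4a lay 0.34, 0.30 and 0.24 above their group means, and Ncam1 and Runx1 lay -0.09 and -0.03 from theirs. In wildtype library 1 Gadd45a, Ncam1 and Runx1 lay 0.43, 0.34 and 0.26 above their group means, and Scn4a lay -0.22 from its own.

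Between the mdx groups, where no member and no list gene was called, the relatives of the members leaned lower in GTx-026: 7 of 9 paralogues and partners had lower fitted levels, with a median log2 fold change of -0.21, against 0.0049 over all tested genes, and without mdx vehicle library 1 the median was -0.25. Among them Gadd45b had 16.5, 10.8 and 9.66 CPM in mdx GTx-026 libraries, against 31.7, 34.6 and 14.7 CPM in mdx vehicle libraries, a log2 fold change of -1.02 (SE 0.41, adjusted p = 0.9996, limma), or -0.86 without mdx vehicle library 1. The junction kinase Musk had 43.5, 41.4 and 38.6 CPM in mdx GTx-026 libraries, against 13.5, 34.0 and 14.7 CPM in mdx vehicle libraries. Its groups did not overlap, and its log2 fold change of 1.08 (SE 0.30, adjusted p = 0.9996, limma), or 0.85 without mdx vehicle library 1, did not pass the test.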
